A study of Mus musculus with 100 samples.

Results

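The 4 libraries described here hold RNA of mouse neural progenitors at day 8 of differentiation from embryonic stem cells, 2 libraries of the flox genotype and 2 of the KI genotype. They were chosen as the RNA tables titled Neural_D8 of these genotypes, out of 100 samples in the series and 37 with a table used here. The flox cells were Mll3-/-;Mll4flox/flox and the KI cells Mll3-/-;Mll4KI/KI, so that the Mll3 deletion was shared by every library and the genotypes differed at Mll4. The labels do not spell out the KI allele; the title of the series speaks of enzymatic activity of the methyltransferases MLL3 and MLL4. Stem cells were kept in 2i medium with LIF, aggregated into embryoid bodies, given 5 µM retinoic acid after day 4, and harvested at day 8. Each KI library is 1 clone, 27 or 48, so clone and genotype effects rest on 2 clones. The flox libraries are numbered 1 and 2, and nothing in the labels says whether they came from separate cultures, so the p-values measure the spread between these libraries, which may be technical.

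MLL3 and MLL4 are large enzymes that methylate histone H3 at lysine 4 on enhancers, in complexes that also carry the demethylase UTX, and they are known for roles in switching on cell type genes during differentiation. Retinoic acid given to embryoid bodies binds nuclear receptors and pushes cells towards neural progenitors of hindbrain and spinal cord character. In that response Hox genes are switched on in the order in which they lie along their clusters, and the levels of Hox genes, of dorsoventral transcription factors and of signalling molecules mark the position that a progenitor has taken.

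The gene-level read counts came to 43136044 to 51168126 reads per day 8 library, so that 3 reads, the smallest number treated as detection, equal 0.0557 to 0.0666 CPM, the read count scaled to library size. This limit and the intervals given with it cover counting error only. Between 4.27% and 4.49% of each library's reads fell on its top 10 genes. The 2 flox libraries stood closer to each other than any other replicate pair examined. Their chi-square per degree of freedom over genes was 1.50, against 6.08 for the KI clones in stem cells and 22.2 for the KI clones at day 8. At day 16 it was 27.9 for the flox pair and 54.8 for the KI clones. No gene was at least 2-fold apart between flox 1 and flox 2, and 24 genes were between the KI clones, 18 of them higher in clone 27 (both on CPM + 0.5, with 16439 genes tested). List counts are therefore also given, where they changed, with the flox libraries summed and counted as 1 library. Kmt2c, which encodes MLL3, was at 62.1 and 63.8 CPM in flox and at 65.1 and 57.5 CPM in KI, and Kmt2d, which encodes MLL4, was at 191 and 186 CPM in flox and at 248 and 185 CPM in KI. Neither passed the test at day 8, and since the counts cover the whole transcript they do not check the alleles. All CPM values are scaled between the 8 neural libraries, and pairs of values are in the order flox 1, flox 2 and then KI clone 27, clone 48.

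Of 16439 genes tested, 3202 (19.5%) differed between KI and flox at an adjusted p under 0.05, 1036 higher in KI (6.3%) and 2166 lower (13.2%). At a difference of at least 2-fold the calls were 1330 (8.09%), with 279 higher (1.7%) and 1051 lower (6.39%). The median log2 fold change over all genes was 0.0047, close to 0. The called genes that were higher had a median log2 fold change of 0.59 and those that were lower one of -0.97. The number called depended on the flox pair and on clone 48: it was 1950 without flox 1, 1896 without flox 2, 2111 without KI clone 48 and 2074 (499 higher, 1575 lower) with the flox libraries summed, of which 2061 were shared with the full fit. At 2-fold the summed flox libraries left 1227 calls, 252 higher and 975 lower. With 2 libraries a group, the KI and flox values did not overlap for 65.8% of genes tested (32.7% with KI higher, 33.1% with KI lower), so lack of overlap alone says little. By the interaction test of the same fit, 33.2% of genes had an effect at day 16 unlike that at day 8.

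**Figure D1:**
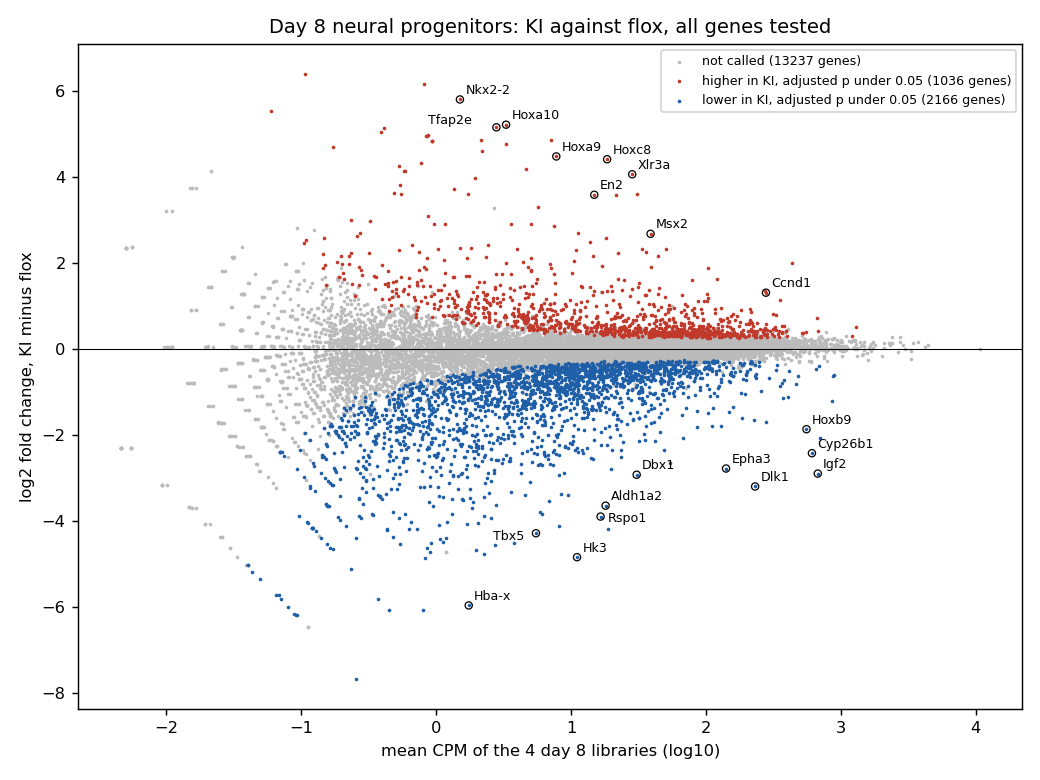
Log2 fold change, KI minus flox (vertical), against the log10 of the mean CPM of the 4 day 8 libraries (horizontal), 1 point per gene tested with reads at day 8; red points are the 1036 genes higher in KI, blue the 2166 lower, grey not called. More blue than red points lie beyond 2-fold (1051 against 279), and Hoxb9, Cyp26b1, Igf2 and Dlk1 are abundant genes that were lower in KI. Genes with few reads in a group, such as Hba-x and Nkx2-2, are drawn at fitted values.

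The libraries carried the markers of neural progenitors in both genotypes. The 15 listed progenitor genes, all tested, summed to 2594 and 2608 CPM in flox and to 2698 and 2628 CPM in KI, and their median log2 fold change was 0.01. Within the list 4 were higher and 4 lower (3 and 4 with the flox libraries summed). Sox1, an early marker of the neural plate, was at 41.1 and 42.3 CPM in flox and at 62.7 and 58.6 CPM in KI (1.45-fold higher). Sox2, which keeps progenitors undifferentiated, was at 262 and 265 CPM in flox and at 351 and 377 CPM in KI. The RNA-binding protein gene Msi1 was at 224 CPM in both flox libraries and at 338 and 333 CPM in KI. In the other direction Fabp7, a lipid-binding protein of radial glia, was 2.92-fold lower in KI, Hes5 2.61-fold lower and Sox9 1.58-fold lower. Nes, an intermediate filament of progenitors named after its values were seen, did not pass the test.

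Several lists of non-neural lineages held mainly lower calls, and others did not. In the trophoblast list 57.1% of genes tested were called, against 19.5% of all genes. The highest of them, Gata3, is also listed among spinal and hindbrain neuron types. In the list of epithelium and surface ectoderm the share called was 23.1%, near that of all genes. Of 7 trophoblast genes tested 3 were higher and 1 lower (1 and 1 with the flox libraries summed), and of 13 genes of epithelium and surface ectoderm 2 were higher and 1 lower (1 and 1 with the flox libraries summed). All 16 endothelial genes were called lower, with a median log2 fold change of -2.33, and 15 of them were at least 2-fold lower. Their summed level was 187 and 188 CPM in flox and 49.0 and 41.4 CPM in KI. Pecam1, an adhesion molecule of endothelial junctions, was at 20.0 and 20.1 CPM in flox and at 4.66 and 3.17 CPM in KI. The transcription factor gene Sox18 was at 5.01 and 5.31 CPM in flox and at 0.599 and 0.240 CPM in KI, a 12.4-fold difference (log2 -3.64, SE 0.29, adjusted p = 3.68e-06). The angiopoietin pathway receptor gene Tie1 was at 17.1 and 17.9 CPM in flox and at 2.04 and 1.28 CPM in KI. Every one of the 16 genes was lower, against 13.2% of all genes tested, and 15 of 16 were called lower with the flox libraries summed. In bulk RNA, fewer cells of a type and less RNA per cell cannot be told apart.

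Embryonic globins were lower in KI. Hba-x, the zeta globin of primitive red cells, had 340 reads in the flox libraries together and 5 in the KI libraries together, a 65.1-fold lower level with a 95% counting interval of 27.6 to 202. Hbb-y, an embryonic beta-like globin, was at 4.79 and 4.88 CPM in flox and at 0.288 and 0.339 CPM in KI. Hbb-bh1 was at 2.07 and 2.27 CPM in flox and at 0.0222 and 0.160 CPM in KI, where clone 27 lies under the detection limit. Of 12 listed erythroid genes 10 were tested, 6 were lower and none higher, also with the flox libraries summed. The lineage regulator Gata1 had at most 5 reads in any library and was not tested. The leukocyte list was thinner: 5 of 17 genes in the tables were tested, 3 were lower (1 without flox 1, 2 without any other single library or with the flox libraries summed), and the defining gene Ptprc had no read in any of the 4 libraries.

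Heart and mesothelium genes were called in 1 direction, lower in KI. Of 18 heart genes tested 9 were lower, 9 were not called, and the median log2 fold change was -1.24 (7 lower with the flox libraries summed). Tbx5, a transcription factor of the heart field and forelimb, was at 10.5 CPM in both flox libraries and at 0.444 and 0.619 CPM in KI (19.5-fold lower). The troponin gene Tnni1 was at 5.05 and 5.5 CPM in flox and at 0.333 and 0.120 CPM in KI. Nkx2-5, a defining factor of cardiac cells, was at 0.0220 and 0.0743 CPM in flox and at 0.222 and 0.0998 CPM in KI, and did not pass the test. In mesothelium, the epithelium that lines body cavities, 7 of 9 genes tested were lower with a median of -2.10, and 7 were lower with the flox libraries summed. Upk3b, a mesothelial uroplakin, was at 12.6 and 12.9 CPM in flox and at 1.22 and 0.978 CPM in KI, and Wt1 was at 68.8 and 68.1 CPM in flox and at 34.9 and 25.4 CPM in KI. Both genes were lower in each KI clone than in each flox library, as were 33.1% of all genes tested.

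Genes of extraembryonic endoderm split. Of 20 tested, 11 were lower, 3 higher and 6 not called (10 lower and 2 higher with the flox libraries summed), with a median log2 fold change of -0.95. Gata4, a regulator of primitive endoderm that heart precursors also express, was at 39.8 and 39.9 CPM in flox and at 7.28 and 6.75 CPM in KI (5.68-fold lower). The apolipoprotein gene Apob was 5.99-fold lower and the transthyretin gene Ttr 4.79-fold lower, at levels of 1.32 CPM or less in flox. Foxa1, a pioneer factor that the floor plate of the neural tube also expresses, was at 7.27 and 6.70 CPM in flox and at 30.6 and 22.9 CPM in KI. The endocytic receptor gene Lrp2, also made by neuroepithelium, was at 16.3 and 16.8 CPM in flox and at 55.7 and 68.4 CPM in KI. Matrix genes were mixed: in the mesenchymal list 8 of 18 were lower and 4 higher, with Col1a1 4.44-fold and Pdgfrb 5.11-fold lower and Col6a2 3.05-fold higher. In the basement membrane list 8 of 16 were lower (6 with the flox libraries summed), among them Nid1 (2.27-fold), and Lama1 was higher, at 116 CPM in both flox libraries and at 190 and 166 CPM in KI. The call of Lama1 was lost without KI clone 27 (adjusted p = 0.0783).

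**Figure D2:**
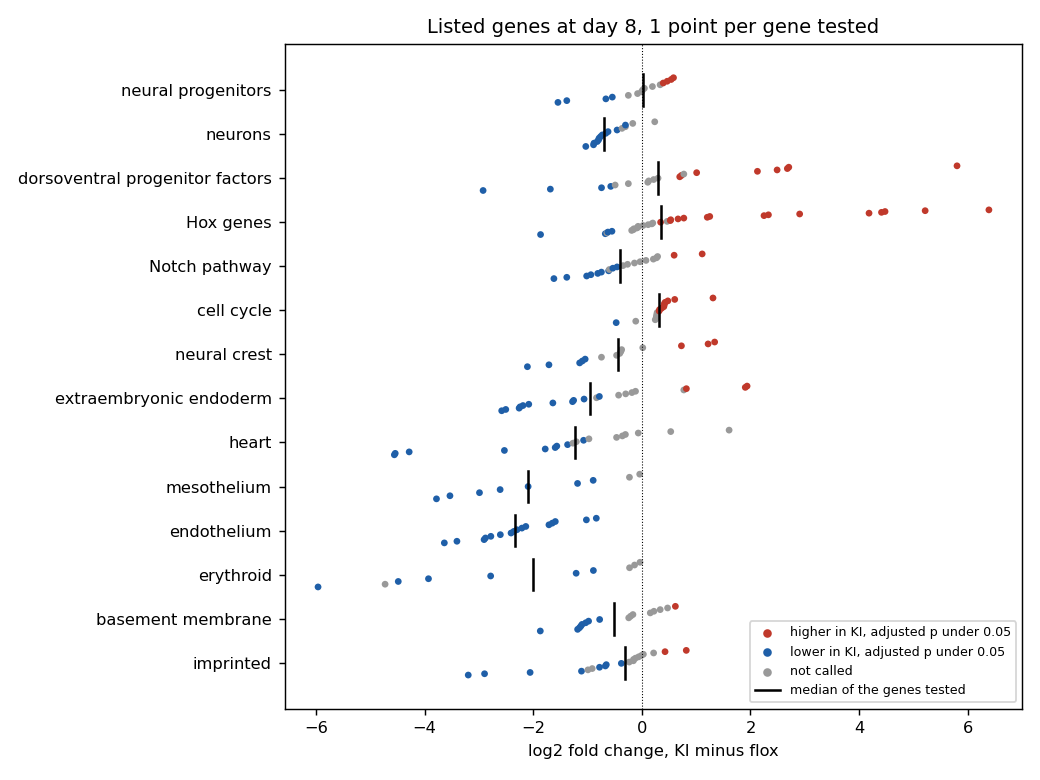
Log2 fold change, KI minus flox, of each gene tested in 14 lists, 1 point per gene, red where called higher, blue where called lower and grey where not called; the black bar is the list's median. All 16 endothelial points lie below 0, while the neural progenitor and Hox lists have points on both sides.

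Several Hox genes of groups 5 to 10 were higher in KI in the Hoxa, Hoxc and Hoxd clusters. Of 39 listed Hox genes 31 were tested; 15 were higher and 4 lower, 10 and 1 of them at least 2-fold, and the median log2 fold change was 0.35 (0.148 without KI clone 27). With the flox libraries summed, 14 were higher and 4 lower. In the Hoxa cluster the genes of paralog groups 1 to 4 did not pass the test, with log2 fold changes between -0.15 and 0.18. From Hoxa5 on the difference grew gene by gene: Hoxa5 was 1.27-fold, Hoxa6 2.38-fold, Hoxa7 4.76-fold, Hoxa9 22.3-fold and Hoxa10 37.2-fold higher in KI. Hoxa10, which patterns the lumbar spinal cord and trunk, was at 0.110 and 0.223 CPM in flox and at 7.01 and 5.87 CPM in KI (log2 5.22, SE 0.34, adjusted p = 8.47e-07). Hoxa9 was at 0.725 and 0.613 CPM in flox and at 17.6 and 12.3 CPM in KI. Hoxa7, expressed further forward than these in the trunk, was at 12.6 and 12.5 CPM in flox and at 68.0 and 51.0 CPM in KI. The call of Hoxa5 was lost without flox 1, flox 2 or KI clone 27 (adjusted p = 0.212, 0.257 and 0.283), with the flox libraries summed (0.224), and with upper-quartile scaling, a filter at 1 CPM, reads summed over transcripts or the length trend removed (0.0517 to 0.0574), and those of the other 4 genes were kept without any 1 library. Beyond Hoxa10, Hoxa11 and Hoxa13 had at most 6 reads in any library and were not tested. Hoxc11, Hoxc12 and Hoxc13 were not tested either.

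In the Hoxc and Hoxd clusters the differences were also larger in groups 8 and 9 than in groups 3 to 5. Hoxc4 was at 242 and 239 CPM in flox and at 225 and 206 CPM in KI and did not pass the test, Hoxc5 was 1.45-fold higher, Hoxc6 2.30-fold, Hoxc8 21.3-fold and Hoxc9 18.2-fold. Hoxc8, a gene of the brachial and thoracic cord, was at 1.60 and 1.71 CPM in flox and at 39.1 and 31.8 CPM in KI. Hoxc9, which sets thoracic identity in motor neurons, was at 0.462 and 0.501 CPM in flox and at 10.8 and 6.85 CPM in KI. Hoxc10 had no read in either flox library and 20 reads in the KI libraries together, at least 3.48-fold higher when flox is set to 3 reads per library. In the Hoxd cluster, Hoxd3 did not pass the test, Hoxd4 was 1.44-fold, Hoxd8 5.03-fold and Hoxd9 7.50-fold higher. Hoxd8 was at 11.5 and 10.8 CPM in flox and at 55.2 and 57.1 CPM in KI. At the 3′ end Hoxd1 was at 4.62 and 4.81 CPM in flox and at 8.14 and 7.97 CPM in KI, a call lost without flox 1 or flox 2 (adjusted p = 0.0696 and 0.0536). Hoxd10 to Hoxd12 had at most 2 reads in any library, and Hoxd13, with at most 8, did not pass the test. Without KI clone 48 the call of Hoxc5 was lost (adjusted p = 0.0658).

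In the Hoxb cluster Hoxb7, Hoxb8 and Hoxb9 were lower in KI. Hoxb9, the paralog of Hoxa9, Hoxc9 and Hoxd9, was at 882 and 866 CPM in flox and at 273 and 206 CPM in KI, 3.64-fold lower (log2 -1.87, SE 0.20, adjusted p = 0.000106). Hoxb8 was at 590 and 586 CPM in flox and at 416 and 346 CPM in KI, and Hoxb7 at 90.5 and 87.6 CPM in flox and at 66.6 and 55.0 CPM in KI. Hoxb3, Hoxb4, Hoxb5, Hoxb6 and Hoxb13 did not pass the test; Hoxb13, at 1.82 and 2.15 CPM in flox and at 3.35 and 2.18 CPM in KI, was called higher without KI clone 48 (adjusted p = 0.0455). Nearer the 3′ end Hoxb2, a hindbrain gene, was 1.59-fold lower, and Hoxb1, a gene of the fourth rhombomere, was 1.59-fold higher, a call lost without KI clone 27 (adjusted p = 0.0838). On the length-scaled RPKM values as deposited, Hoxb9 stood at a mean of 221 in flox and 59.5 in KI, and Hoxa10 at 0.0443 and 1.68. The Hoxb9 level in KI was therefore still above that of the other genes of its paralog group, whose CPM in KI lay at or under 17.6. Among Hox cofactors Meis1 was 1.24-fold higher, Pbx3 1.38-fold and Meis2 1.25-fold lower, and the calls of Meis1 and Meis2 were lost with the flox libraries summed (adjusted p = 0.189 and 0.186), without flox 1 (0.164 and 0.19), without flox 2 (0.24 and 0.202) and without KI clone 48 (0.0658 and 0.127), and that of Meis1 also without KI clone 27 (0.0737). Cdx1, a regulator of trunk Hox genes, was under 1.1 CPM in all 4 libraries and did not pass the test.

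**Figure D3:**
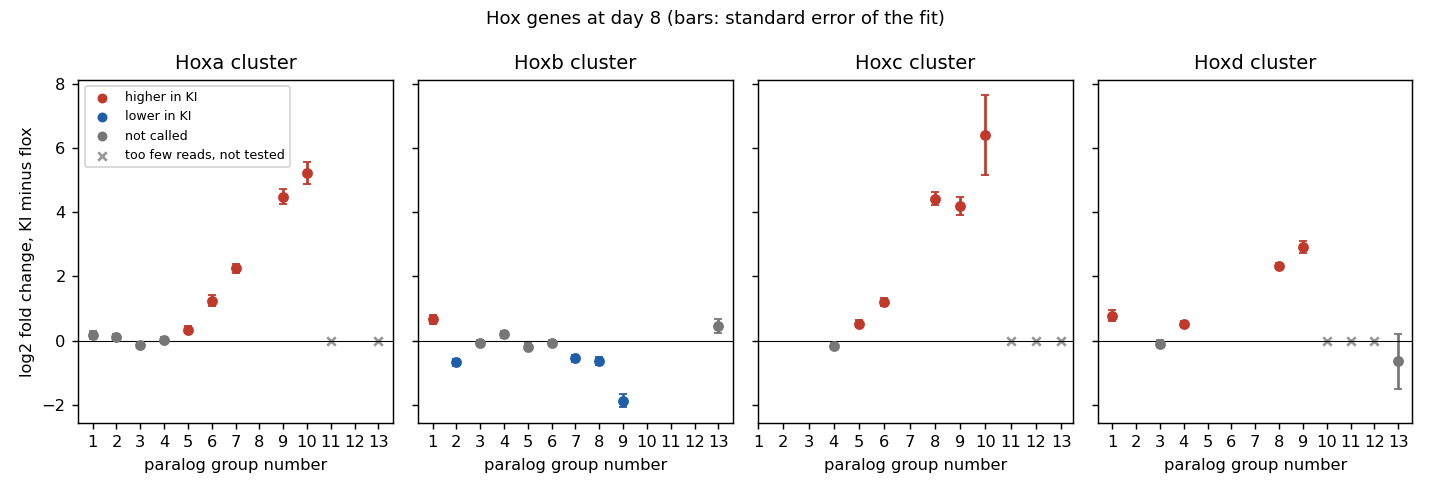
Log2 fold change, KI minus flox (vertical), of each Hox gene by paralog group number (horizontal), 1 panel per cluster; bars are the standard error of the fit, red is higher in KI, blue lower, grey not called, and crosses mark genes with too few reads. In the Hoxa, Hoxc and Hoxd panels the points at Hoxa10, Hoxc8, Hoxc9 and Hoxd9 lie at 5.22, 4.41, 4.18 and 2.91, while Hoxb9 lies at -1.87; the point of Hoxc10, with no flox read, is a fitted value and no measure of size.

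Retinoic acid is made from retinaldehyde by ALDH1A enzymes, broken down by CYP26 enzymes and sensed by RAR and RXR receptors, and Cyp26a1, Rarb and several Hox genes are its classical direct targets. The proximal promoters of Rarb and Cyp26a1 are shown because they hold the receptor binding sequence by which that response is known, the DR5 direct repeat, and the 2 genes differed in direction between KI and flox. Capitals mark the repeat, 2 half-sites in the same direction with 5 bases between them, searched on both strands, where a half-site could be spelled AGTTCA in the first form, AGGTCA in the second form, GGTTCA in the third form and GGGTCA in the fourth form. Each line gives the 250 bases upstream of the RefSeq start site (GRCm38.p6), 5′ to 3′ on the gene's strand.
Rarb, chr14:16575477-16575726, minus strand: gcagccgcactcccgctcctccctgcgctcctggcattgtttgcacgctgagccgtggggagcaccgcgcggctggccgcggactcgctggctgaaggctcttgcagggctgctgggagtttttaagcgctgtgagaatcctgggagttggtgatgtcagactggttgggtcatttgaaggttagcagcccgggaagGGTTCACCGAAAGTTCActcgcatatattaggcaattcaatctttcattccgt
Cyp26a1, chr19:37697558-37697807, plus strand: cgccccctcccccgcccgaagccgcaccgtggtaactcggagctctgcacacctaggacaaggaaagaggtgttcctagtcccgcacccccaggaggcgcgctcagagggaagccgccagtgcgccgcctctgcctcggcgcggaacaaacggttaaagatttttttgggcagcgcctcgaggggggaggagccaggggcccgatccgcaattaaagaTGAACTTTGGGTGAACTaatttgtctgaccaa
The repeat ends 36 bases before the start site in Rarb, and 15 bases before it in Cyp26a1, where it reads on the opposite strand. It occurs in 29 of 32851 windows of this length in the table (0.0883%), and in 2 of the 15 retinoic acid genes that have a window. A match describes the letters and is no evidence of binding in these cells.

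Among the 19 retinoic acid genes, all tested, 7 were lower and 3 higher, with a median log2 fold change of -0.18 (-0.103 without KI clone 27, -0.293 without KI clone 48). Enzymes that dispose of retinoids were among those that fell. Cyp26b1 was at 1037 and 1023 CPM in flox and at 234 and 151 CPM in KI (5.36-fold lower, log2 -2.42, SE 0.18, adjusted p = 2.82e-06). Cyp26a1, named because of its promoter and after its values were seen, was at 276 and 282 CPM in flox and at 83.9 and 101 CPM in KI. Dhrs3, which reduces retinaldehyde back to retinol, was at 132 and 135 CPM in flox and at 40.2 and 35.8 CPM in KI. The synthesising enzyme gene Aldh1a2, known from mesoderm and motor neurons, was at 34.9 and 32 CPM in flox and at 2.84 and 2.52 CPM in KI, 12.5-fold lower. For these 4 genes both KI clones lay below both flox libraries by more than 2-fold. They were named as the lowest calls of the list or with their values known, so this adds no support.

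The receptors moved the other way and by less. Rarb was at 257 and 255 CPM in flox and at 333 and 347 CPM in KI (log2 0.41, SE 0.10, adjusted p = 0.00916). Rara was 1.35-fold and Rxra 1.32-fold higher. All 3 receptor calls were lost with the flox libraries summed (adjusted p = 0.0874, 0.0636 and 0.0799 for Rarb, Rara and Rxra) and without flox 1 (0.0849, 0.0519 and 0.0666) or flox 2 (0.0999, 0.0903 and 0.115). The adjusted p was also above the threshold without KI clone 48 for Rarb (0.0621) and without KI clone 27 for Rara (0.0517) and Rxra (0.118). With the flox libraries summed, 5 genes of the list were lower and none higher. Rdh10, which makes retinaldehyde, was at 18.9 and 19.8 CPM in flox and at 16.6 and 16.5 CPM in KI and did not pass the test, but was called lower with only the 4 day 8 libraries (adjusted p = 0.0497). Mesoderm and mesothelium express Aldh1a2. The 9 mesothelial genes tested summed to 142 and 143 CPM in flox and to 65.2 and 66.5 CPM in KI. In the streak and mesoderm list 6 of 14 genes were lower and 1 higher, with a median log2 fold change of 0.03. The part of these tissues in the Aldh1a2 difference was not tested.

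Transcription factors that divide the neural tube from dorsal to ventral changed in both directions. Of 19 tested, 8 were higher and 4 lower (7 and 3 with the flox libraries summed), with a median log2 fold change of 0.30 (0.511 without KI clone 27). Among dorsal factors, Msx2 was at 10.7 and 10.4 CPM in flox and at 57.8 and 76.8 CPM in KI (6.40-fold higher), while its relative Msx1 was at 102 and 101 CPM in flox and at 64.2 and 57.0 CPM in KI. Pax3, which marks the dorsal tube and neural crest, was at 108 and 106 CPM in flox and at 177 and 179 CPM in KI. In the intermediate domains Dbx1, a factor of interneuron progenitors, was at 54.9 and 53.6 CPM in flox and at 9.70 and 4.65 CPM in KI (7.59-fold lower), and Dbx2 was 3.22-fold lower. Gsx1, a dorsal interneuron progenitor factor named here after its values were seen, was at 4.15 and 4.23 CPM in flox and at 23 and 24.2 CPM in KI.

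Among factors of the ventral tube, Nkx2-2, which marks the progenitors next to the floor plate, had 5 reads in the flox libraries together and 279 in the KI libraries together, a 58.3-fold higher level with a 95% counting interval of 24.7 to 181. Olig2, the motor neuron and oligodendrocyte progenitor factor, was at 0.857 and 0.873 CPM in flox and at 3.99 and 3.59 CPM in KI. Shh, the ventral morphogen, was at 3.41 and 3.34 CPM in flox and at 6.15 and 4.81 CPM in KI, a call that was lost without flox 1, flox 2 or KI clone 27 and with the flox libraries summed (adjusted p = 0.0624, 0.0815, 0.081 and 0.0557). In the Hedgehog list 6 of 14 genes tested were higher and 2 lower (3 and 1 with the flox libraries summed), with a median of 0.39 (0.174 without KI clone 27, 0.593 without KI clone 48). Without flox 1 the counts were 4 and 0, without flox 2 they were 3 and 1, without KI clone 27 they were 3 and 2, and without KI clone 48 they were 7 and 0. The co-receptor gene Cdon was at 153 and 155 CPM in flox and at 250 and 306 CPM in KI. Desert hedgehog, Dhh, had 24 reads in flox and 4 in KI, a 5.75-fold lower level with a 95% counting interval of 1.97 to 22.8; its call was lost with DESeq2 (adjusted p = 0.152), without flox 1 (0.0733) and without KI clone 48 (0.069).

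**Figure D4:**
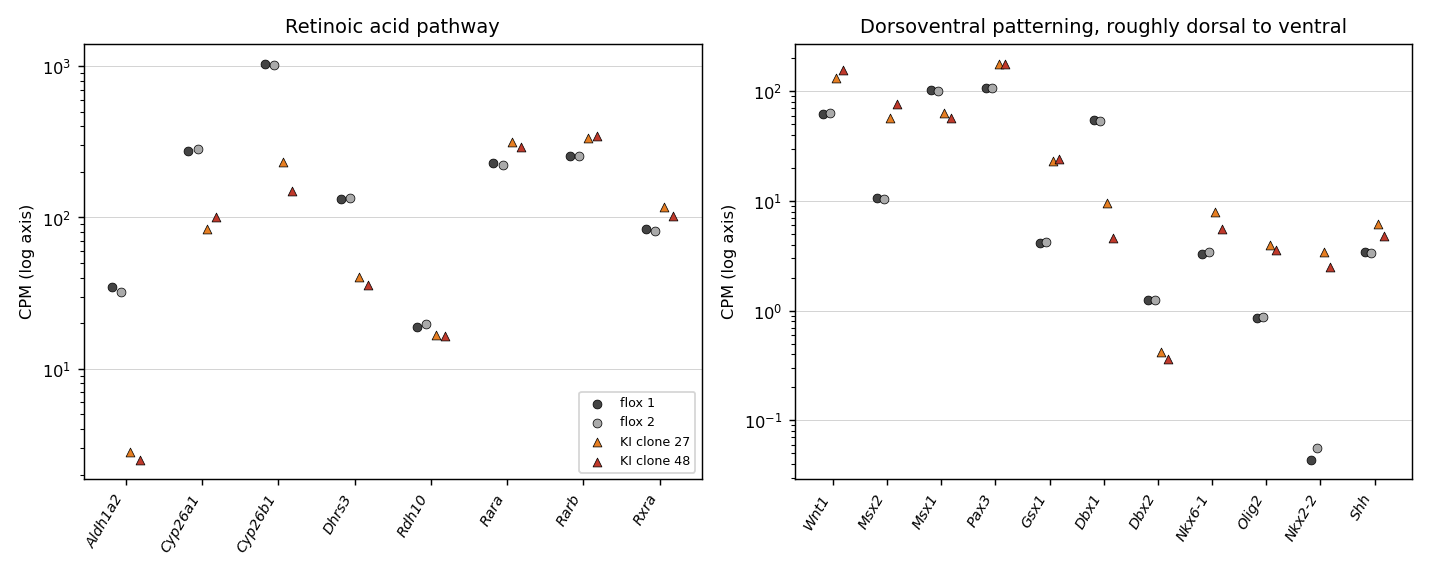
CPM on a log axis of retinoic acid genes (left) and of dorsoventral patterning genes (right), 1 point per library: grey circles are flox 1 and flox 2, triangles are KI clones 27 and 48. The KI points of Aldh1a2, Cyp26a1, Cyp26b1, Dhrs3, Dbx1 and Dbx2 lie below their flox points, and those of Msx2, Gsx1, Olig2 and Nkx2-2 above.

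Along the head-to-tail axis in front of the Hox domains, forebrain genes were scarce. Of 16 listed forebrain factors 10 passed the filter on low counts, 4 were lower and 2 higher (3 and 3 without KI clone 48, 4 and 1 without any other single library or with the flox libraries summed), and Otx2, which defines forebrain and midbrain, had at most 6 reads in any library. Emx2, a factor of the dorsal forebrain, was 2.20-fold lower in KI. Of 11 genes of the midbrain-hindbrain boundary 3 were higher and 2 lower; 1 was lower without either flox library or with these summed. En2 was at 2.31 and 2.27 CPM in flox and at 28.2 and 26.8 CPM in KI, 12.0-fold higher, whereas its paralog En1 was at 1.21 and 1.36 CPM in flox and at 1.64 and 0.918 CPM in KI, with overlapping groups. Lmx1b, a boundary and dorsal midline factor, was at 5.96 and 6.22 CPM in flox and at 1.82 and 1.20 CPM in KI.

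Wnt signalling genes were the most often called of the signalling lists, with 9 of 32 tested higher and 16 lower (8 and 13 with the flox libraries summed) and a median log2 fold change of -0.43. Wnt1, the ligand of the dorsal midline and the boundary, was at 62.8 and 63.9 CPM in flox and at 131 and 156 CPM in KI. Wnt7a was at 3.82 and 3.03 CPM in flox and at 11.9 and 11.1 CPM in KI, and the non-canonical ligand gene Wnt5a at 10.9 and 11 CPM in flox and at 40.5 and 27.3 CPM in KI. Sp8, a target gene and neural transcription factor, was 2.71-fold higher. The Wnt agonist gene Rspo1 was at 29.8 and 32.3 CPM in flox and at 2.20 and 1.98 CPM in KI (14.9-fold lower), Sfrp5, a secreted inhibitor, was 6.35-fold lower, and Wnt2, a ligand of heart and lung mesoderm, 5.67-fold lower. Among BMP genes 8 of 23 were lower and 3 higher (7 and 1 without KI clone 48, 8 and 2 without either flox library or with these summed): the modulator gene Bmper was 5.39-fold lower, the transducer Smad9 4.95-fold and the ligand Gdf6 4.17-fold, and the antagonist gene Grem1 was at 0.132 and 0.223 CPM in flox and at 0.666 and 1.12 CPM in KI.

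Genes of differentiating neurons were lower in KI. Of 16 tested 12 were lower (75%, against 13.2% of all genes) and none higher, with a median log2 fold change of -0.70, and 10 were lower with the flox libraries summed. The list summed to 2626 and 2633 CPM in flox and to 1990.5 and 1686 CPM in KI. Elavl4, an RNA-binding protein of early neurons, was at 71.8 and 70.7 CPM in flox and at 35.3 and 34.3 CPM in KI (2.05-fold lower, adjusted p = 6.63e-05). The neurofilament gene Nefm was at 86.6 and 88.1 CPM in flox and at 50.5 and 43.8 CPM in KI, and the synaptic vesicle gene Syt1 was 1.84-fold lower. Tubb3, the neuronal tubulin, was at 542 and 548 CPM in flox and at 469 and 415 CPM in KI and did not pass the test (log2 -0.30, SE 0.14, adjusted p = 0.163), but was called lower with only the 4 day 8 libraries (adjusted p = 0.0271).

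The proneural factors, which commit progenitors to neurogenesis, were split, with 6 of 19 tested higher and 7 lower (6 and 5 with the flox libraries summed). Neurog1 was at 102 and 103 CPM in flox and at 74.7 and 60.2 CPM in KI, and Nhlh2, expressed in newly born neurons, was at 132 and 129 CPM in flox and at 79.4 and 67.0 CPM in KI. The list also holds Olig1 and Olig2, known from motor neuron and oligodendrocyte progenitors. They and Neurod2, at 0.499 CPM or less in every day 8 library, were the 3 genes at least 2-fold higher. Olig1 was at 0.769 and 0.780 CPM in flox and at 3.02 and 2.08 CPM in KI. Of 24 genes of spinal and hindbrain neuron types 5 were higher and 6 lower (3 and 5 without flox 2, 4 and 6 with the flox libraries summed). Tlx3, a selector of dorsal excitatory neurons, was at 4.13 and 4.16 CPM in flox and at 16.8 and 17.4 CPM in KI, and Gata3, expressed in ventral inhibitory and serotonergic neurons, was 3.74-fold higher. Tal1, a partner of Gata factors in the same interneurons and also a regulator of blood and endothelium, was at 2.99 and 2.86 CPM in flox and at 0.533 and 0.319 CPM in KI. Erythroid and endothelial markers were lower beside it; their part in its difference was not tested.

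Notch signalling holds progenitors back from differentiating, through Hes and Hey repressors. Of 20 genes of the pathway, all tested, 9 were lower and 2 higher (6 and 2 with the flox libraries summed), with a median log2 fold change of -0.40. The receptor gene Notch1 was at 250 and 248 CPM in flox and at 273 and 215 CPM in KI and did not pass the test, and Notch3 was 1.51-fold higher. The target genes went in different directions. Hes1 was at 60.5 and 62.5 CPM in flox and at 127 and 139 CPM in KI, Hes5 was at 102 and 104 CPM in flox and at 42.5 and 36.4 CPM in KI, and Hey1 was at 40.9 and 43.3 CPM in flox and at 24.2 and 17.5 CPM in KI.

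The count of cell cycle genes called depended on the libraries in the fit. Of 18 tested 10 were higher and 1 lower, with a median log2 fold change of 0.32, but with the flox libraries summed 3 were higher and none lower, and the same counts came without flox 1 and without flox 2; 6 were higher without KI clone 48, and 16 with only the 4 day 8 libraries. Ccnd1, which drives entry into S phase, was at 160 CPM in both flox libraries and at 421 and 374 CPM in KI (2.48-fold, log2 1.31, SE 0.09, adjusted p = 1.59e-06). The helicase subunit gene Mcm6 was at 175 and 174 CPM in flox and at 257 and 273 CPM in KI. Ccnd2 was at 771 and 755 CPM in flox and at 559 and 540 CPM in KI, a call lost without each of the 4 day 8 libraries in turn (adjusted p between 0.0902 and 0.144). Of 12 cell cycle inhibitors and growth arrest genes 2 were higher (16.7% called, against 19.5% of all genes): Btg2 was at 56.2 and 55.3 CPM in flox and at 90.7 and 93.4 CPM in KI, and Cdkn1a was 1.51-fold higher, a call lost without flox 2 or KI clone 48 (adjusted p = 0.0961 and 0.119).

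Axon guidance genes, which steer growing axons, changed in both directions. Of 28 tested 10 were lower and 7 higher (8 and 5 with the flox libraries summed). Epha3, an ephrin receptor, was at 247 and 246 CPM in flox and at 37.1 and 34.6 CPM in KI, 6.87-fold lower. Unc5a, a netrin receptor, was at 172 and 175 CPM in flox and at 54.7 and 45.6 CPM in KI, while Ntn1, the netrin made by the floor plate, was at 58.6 and 60 CPM in flox and at 199 and 166 CPM in KI. Efna5, an ephrin ligand, was at 24.2 and 24.5 CPM in flox and at 63.0 and 67.1 CPM in KI. In each of these 4 genes the KI clones lay closer to each other than to either flox library. They were named from the highest and lowest calls of the list, so this adds no support.

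In the glial list 6 of 16 genes tested were lower and 3 higher (5 and 1 without KI clone 27, 4 and 3 with the flox libraries summed). Gfap, the astrocyte filament, had at most 3 reads in any library. Nfib, a factor of gliogenesis, was at 39 and 38.1 CPM in flox and at 121 and 115 CPM in KI, and Pdgfra, a receptor of oligodendrocyte precursors and of mesoderm, was 3.65-fold lower. In the neural crest list 5 of 14 genes were lower and 3 higher. Sox10, which defines migrating crest, was at 0.418 and 0.297 CPM in flox and at 0.200 and 0.220 CPM in KI and did not pass the test. The receptor gene Ret was at 58.5 and 55.9 CPM in flox and at 13.1 and 13.4 CPM in KI, Ngfr was 3.27-fold lower, and Ednrb, the endothelin receptor of crest and progenitors, was at 158 and 152 CPM in flox and at 350 and 435 CPM in KI. Among the AP-2 factors Tfap2b was 2.06-fold lower and Tfap2e, which is known from the olfactory bulb and retina, was at 0.132 and 0.167 CPM in flox and at 4.68 and 6.23 CPM in KI, 35.6-fold higher.

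Of 12 pluripotency genes tested 4 were higher and 4 lower, but the number higher was 1 without flox 1 and 2 without any other single library or with the flox libraries summed. Pou5f1, which stood at 1356 to 1539 CPM in the stem cell libraries, was at 0.637 and 0.520 CPM in flox and at 0.377 and 0.160 CPM in KI at day 8 and did not pass the test. Tbx3, which is also a patterning factor, was at 20.7 and 19.5 CPM in flox and at 43.7 and 41.5 CPM in KI. In the list of formative epiblast genes 7 of 14 were lower and 3 higher (4 and 2 without flox 2, 5 and 2 with the flox libraries summed). In the streak and mesoderm list 6 of 14 were lower and 1 higher (5 and 0 without flox 1, without flox 2 or with the flox libraries summed). With DESeq2 5 genes of this list were lower and none higher. Foxf1, a lateral mesoderm factor, was at 4.57 and 4.47 CPM in flox and at 0.488 and 0.399 CPM in KI. Kdr, the VEGF receptor of endothelial precursors, was at 34.3 and 35.1 CPM in flox and at 6.13 and 4.01 CPM in KI. Defining markers of the early streak were nearly absent: T had at most 6 reads in any library and Msgn1 had none.

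Imprinted genes, expressed from 1 parental copy, were lower for 8 of 20 tested and higher for 2 (7 and 1 with the flox libraries summed). Igf2, a fetal growth factor strongly expressed in mesoderm and endoderm, was at 1201 and 1179 CPM in flox and at 183 and 136 CPM in KI, 7.45-fold lower. Dlk1, a Notch-like ligand of progenitors and mesenchyme, was at 417 and 419 CPM in flox and at 36.1 and 54.9 CPM in KI, 9.18-fold lower (log2 -3.20, SE 0.30, adjusted p = 0.00034). Zim1 was at 31.8 and 31.2 CPM in flox and at 7.23 and 7.89 CPM in KI. Plagl1, a zinc finger factor that regulates other imprinted genes, was at 227 and 226 CPM in flox and at 433 and 366 CPM in KI. Alongside Igf2 and Dlk1 all 16 endothelial genes were lower. So were 6 of 14 streak and mesoderm genes tested (1 higher) and 11 of 20 extraembryonic endoderm genes (3 higher). The part of these tissues in the Igf2 and Dlk1 differences was not tested.

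In the list of glycolysis and hypoxia genes 3 of 20 were lower and 1 higher, a share called of 20% against 19.5% of all genes; the counts were 3 and 4 without KI clone 27, 5 and 0 without KI clone 48, and 3 and 0 without either flox library or with these summed. The glucose transporter gene Slc2a1 was at 1202 and 1204 CPM in flox and at 449 and 596 CPM in KI, 2.30-fold lower, and Aldoc, the brain aldolase, was 2.50-fold lower. The interferon-stimulated list had 3 of 17 lower (17.6%, against 13.2% of all genes) and 1 higher, and none was higher without any 1 library or with the flox libraries summed, with Isg15 at 0.459 CPM or less in all 4 libraries. In the complexes of MLL3 and MLL4, 1 of 10 genes was called, against 19.5% of all genes: Paxip1, a subunit found in both, was 1.25-fold higher, a call lost without flox 1, flox 2 or KI clone 27 (adjusted p = 0.142, 0.317 and 0.341) and with the flox libraries summed (0.201), and with upper-quartile scaling, a filter at 1 CPM or reads summed over transcripts (0.0506 to 0.0589). Kmt2d gained a call without KI clone 48 (higher, adjusted p = 0.0364). None of 11 other enzymes that write or remove H3K4 methylation or acetylate enhancers was called, at log2 fold changes between -0.09 and 0.23.

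The 10 highest and 10 lowest genes were then set beside stem cell libraries of the same genotypes, 1 of flox and 1 of each KI clone. Labels do not say whether the progenitors came from those cultures. The genes fell into separate patterns. Hoxa9 had no read in the 3 stem cell libraries, and Hoxa10, Hoxc8 and Hoxc9 were at or below 0.289 CPM there. The X-linked germ cell genes Xlr3a and Xlr3b were also higher in KI stem cells. They have near-identical copies, so that reads may be shared between them. Xlr3a was at 6.50 CPM in flox stem cells and at 61.3 and 48.5 CPM in KI stem cells, and at day 8 it was at 3.36 and 3.06 CPM in flox and at 61.5 and 45.9 CPM in KI. Pnma5, a gene derived from a retrotransposon, was at 30.1 CPM in flox stem cells and at 110 and 102 CPM in KI stem cells, and at 0.286 and 0.631 CPM in flox and at 16.8 and 10.7 CPM in KI at day 8. En2 went the other way: it was at 10.9 CPM in flox and at 6.33 and 5.92 CPM in KI stem cells.

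Of the lowest genes, Hk3, a hexokinase of myeloid cells, was at 20.6 and 22.3 CPM in flox and at 0.688 and 0.799 CPM in KI at day 8, 28.7-fold lower, and at or near 0 in the stem cells. Asb4, an ankyrin repeat protein gene of the early vasculature, was at 35.7 and 35.6 CPM in flox and at 2.20 and 1.72 CPM in KI. Lsp1, an actin-binding protein of leukocytes and endothelium, was 17.2-fold lower. Arhgap45 was lower in KI in the stem cell libraries too, at 28.8 CPM in flox and 11.6 and 12.5 CPM in KI. Over all genes called at least 2-fold higher at day 8, 43 of 279 (15.4%) were at least 2-fold higher in both KI clones in stem cells on CPM + 0.5, against 3.18% of all genes tested. Of the genes called at least 2-fold lower, 35 of 1051 (3.33%) were at least 2-fold lower in both KI clones in stem cells, against 2% of all genes tested, and 59 (5.61%) were at least 2-fold higher there. At least 1 CPM in a stem cell library was reached by 119 of the 279 genes, 376 of the 1051 and 12563 of all 16439 tested. A gene under 0.5 CPM in flox stem cells cannot be 2-fold lower on CPM + 0.5. The shares of genes lower there therefore have unlike bases and are not to be compared directly. With a single flox stem cell library these shares have no test.

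**Figure D5:**
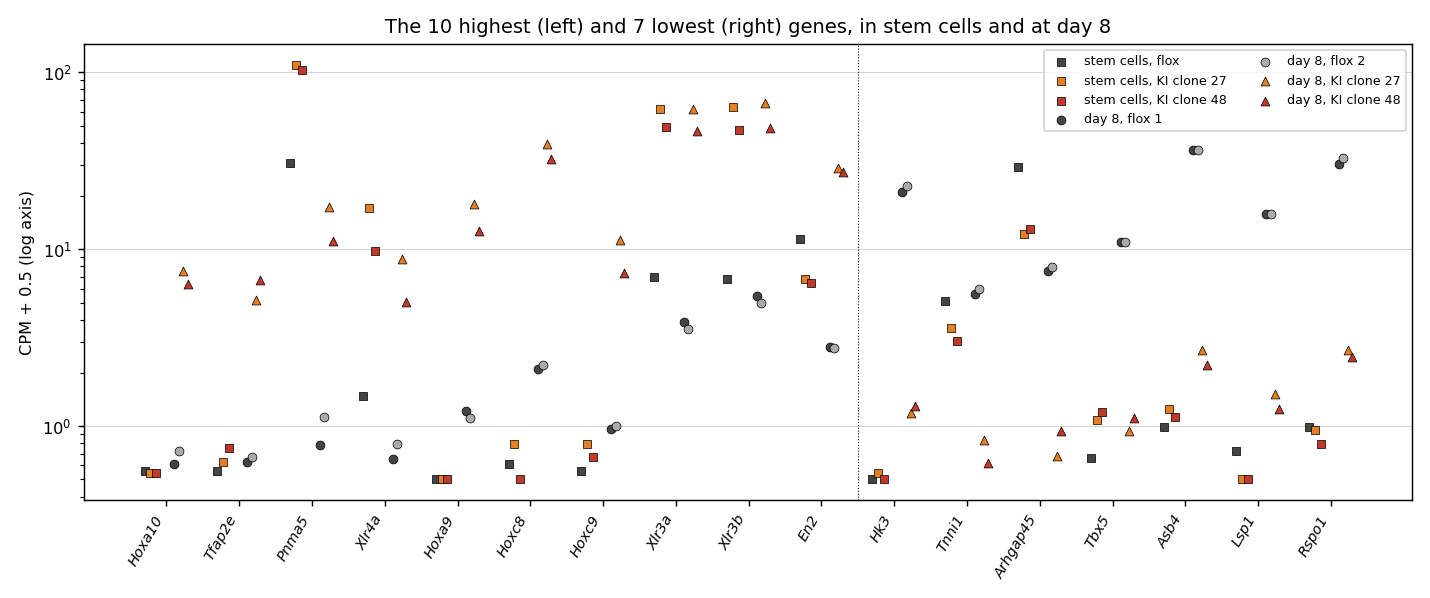
CPM + 0.5 on a log axis of the 10 highest genes (left of the dotted line) and the 7 lowest (right), 1 point per library: squares are stem cells, circles day 8 flox and triangles day 8 KI; stem cell and neural libraries were scaled separately. For Xlr3a, Xlr3b, Xlr4a and Pnma5 the KI stem cell squares also lie above the flox square. The 3 Hox genes of groups 8 and 9 are near 0.5 in all stem cell libraries.

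Called genes also lay next to each other. In the gene order of the RefSeq reference (GRCm38.p6), 15988 tested genes could be placed, and 35 runs of at least 4 neighbours were all called in 1 direction, 6 higher and 29 lower. The runs below were picked after their values were seen. The higher runs included Hoxa5, Hoxa6, Mira, Hoxa7, Hoxa9 and Hoxa10, and Hoxc10 to Hoxc5. The longest lower run, 15 genes of the Pcdha protocadherin cluster with log2 fold changes from -0.93 to -0.36, shares constant exons and so may share reads. Zim1, Peg3 and Usp29 formed part of a lower run of 6 genes, Foxq1, Foxf2 and Foxc1 part of one of 4, and Gimap4, Gimap6 and Gimap1, small GTPases of lymphoid and endothelial cells, part of one of 6. The run of 11 X-linked genes around Luzp4 and Ott was higher and consists of near-identical copies. Gene length went with the share called: from the shortest to the longest of 5 equal groups, 8.78% and 17.1% of genes were lower and 4.04% and 8.12% higher, while the median log2 fold change stayed between 0.0030 and 0.0063.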

How the data were processed

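Poly(A) RNA libraries were made with the NEBNext Ultra II RNA kit, per the labels' protocols. Bowtie2, STAR and the mm9 build are named in the submitters' processing notes without a role; the counting program, annotation and use of strand are not given in the sources used here, so overlapping and antisense genes may share reads. The authors deposited, for 29082 RefSeq transcripts per library, a read count and an RPKM value, which scales the count by transcript length and library total. Per gene the transcript with most reads over all libraries was taken; 646 transcripts matched no symbol and held 1.49% to 1.56% of the reads. No column was left out.

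Counts of the 8 neural libraries (flox and KI, days 8 and 16) were fitted together in edgeR 4.0.16 (R 4.3.3, limma 3.58.1) with TMM scaling, filterByExpr, the robust quasi-likelihood test and Benjamini-Hochberg adjustment over 16439 genes, and 6670 were not tested. A gene was called at an adjusted p under 0.05. Every adjusted p is from edgeR's quasi-likelihood test unless DESeq2 (1.42.0) is named. CPM are TMM-scaled counts; stem cell libraries were scaled among themselves. Labels do not say whether replicates are separate cultures.

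The members and gene lists were chosen with earlier results of these data known. Named genes were the 10 highest and 10 lowest called genes with a mean of at least 5 CPM in the higher group and groups that do not overlap (unnamed models left out), the first gene and up to 3 highest and 3 lowest called genes of each list, all Hox genes, Kmt2c and Kmt2d; exceptions are marked in the text. Promoter sequences are RefSeq's (GRCm38.p6). The scripts were tested on simulated data. Alternatives are in the closing section. Some genes that this rule names are not reported here. Another mutant library of day 8 was not analysed here.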

Additional observations from a re-analysis of the deposited data

Results flagged for a closer look

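By the interaction test, the effect of KI at day 16 was unlike that at day 8 for 10 of the 20 highest and lowest genes, and for 5450 of all 16439 genes (33.2%). Tfap2e was at a mean of 0.0601 CPM in flox and 0.0393 CPM in KI at day 16 (log2 difference of effects -5.78, adjusted p = 0.000677). Pnma5 was at 0.302 CPM in flox and 2.43 CPM in KI, and its effect was smaller at day 16 (-1.81, adjusted p = 0.0273). So were those of Hoxc8, at 11 CPM in flox and 43.4 CPM in KI (-2.43), and En2, at 2.64 CPM in flox and 13.6 CPM in KI (-1.21). Hk3, 28.7-fold lower at day 8, was at 0.0375 CPM in flox and 0.059 CPM in KI at day 16 (5.71, adjusted p = 0.00161). In the day 16 libraries 3 reads equal 0.0501 to 0.0769 CPM before TMM scaling. Tfap2e and Hk3 lay near or under this limit in both genotypes at day 16, so the sizes of their differences of effect rest on few reads. Tbx5 was at 4.24 CPM in flox and 0.934 CPM in KI, in the same direction but less far apart (2.1, adjusted p = 0.000135). Smaller differences at day 16 than at day 8 were also found for Asb4 (3.74), Lsp1 (1.31) and Rspo1 (1.15). Aldh1a2 was at 50.6 CPM in flox and 1.24 CPM in KI at day 16, further apart than at day 8 (-1.71).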

How the results depend on the processing

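No paired analysis was possible because, at day 8, the flox libraries are numbered 1 and 2 and the KI libraries by clone, 27 and 48, so no number is shared. Between days each line is measured at day 8 and day 16, and with the line as a replicate block, chosen after seeing the data, 5914 genes had unlike effects (5314 shared with the 5450); the 10 genes reported above for this difference kept their calls. Deviations of day 8 and day 16 correlated across genes at 0.184 for the KI clones and 0.0342 for flox. Of the 14 other alternatives, the day 8 count of 3202 moved by more than 1.5 times when 1 of flox 1, flox 2 or KI clone 48 was left out (range without 1 library 1896 to 2362) and when the flox libraries were summed as 1, chosen after seeing the data (2074); a fit with 1 library fewer assumes that the lone sample varies like the other groups. The count of 5450 for the difference between days ranged from 3621 to 4427 without 1 library. DESeq2 gave 3047 calls (1246 higher, 1801 lower) and the 4 day 8 libraries alone 4356 (1803 higher, 2553 lower). The median of the forebrain list ranged from -0.825 to 0.138 without 1 library, that of the trophoblast list from -0.158 to 0.737 and that of the glycolysis list from -0.0486 to 0.298. Medians also reversed for pluripotency with at least 1 CPM in 2 libraries (0.276), for trophoblast with no filter (-0.448) and for glycolysis without the 100 most abundant genes (-0.0403); the cause was not tested. Of 193 named genes called, 47 lost the call in at least 1 alternative and none reversed. With 1 in place of 0.5 CPM added, 38 of 279 genes were higher in both stem cell clones. Genes with few reads are limited by depth.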
